A study of Mus musculus with 14 samples.

Results

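Endothelial cells line blood and lymph vessels, and 10 genes that mark them were followed through every library of a mouse lung tumor RNA sequencing study. The genes were chosen by symbol, as Cdh5, Pecam1, Ptprb, Kdr, Flt1, Tek, Tie1, Eng, Vwf and Emcn, and are 10 of the 55291 gene rows of the deposited count table. All 10 passed the filter on low counts that left 17933 genes to test.

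Endothelial cells hold together through the cadherin of Cdh5 and the adhesion molecule of Pecam1, and they keep vessels stable through the angiopoietin receptor of Tek. They grow in response to vascular endothelial growth factor (VEGF), which binds the receptors of Kdr and Flt1. In lung these cells form the capillary net around the air sacs and the larger arteries, veins and lymph vessels, so lung tumor nodules hold vessels of more than 1 kind.

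Lung tumor nodules were snap-frozen and gave total RNA. They came from C57BL/6 mice of the genotype HER2 Exon20YVMA, an insertion in the kinase domain of this growth factor receptor, and every group carried it. The groups were nodules with acquired resistance to mobocertinib given alone (n = 3), nodules of mice on long-term combination treatment (n = 3), on T-DM1 (n = 3), on mobocertinib, also called TAK-788 (n = 3), and on vehicle (n = 2). Mobocertinib is a kinase inhibitor of mutant EGFR and HER2, and T-DM1 is an antibody-drug conjugate that delivers a microtubule poison to HER2-bearing cells. Doses, ages, sexes, the driver of the mutant allele and the length of treatment are not stated in the labels. The treatment label of the combination does not name its drugs. The labels do not say that the libraries came from separate animals, so the p-values reflect only how far these samples spread, which may be technical. Endothelial and tumor cells were not separated, and in such bulk RNA fewer endothelial cells and less endothelial RNA per cell cannot be told apart.

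Library totals were 19344000 to 31287300 counts. The 10 genes took 0.0751% to 0.1997% of the counts of the 12 libraries other than vehicle, against 0.0171% and 0.0145% in vehicle (95% Wilson intervals 0.0166% to 0.0176% and 0.0141% to 0.0150%, which cover counting error only). Both vehicle libraries stood apart in the RNA they held. Genes with coding transcripts under 1 kb took 8.15% to 14.3% of counts in the 12 other libraries and 30.8% and 36.5% in vehicle. Those over 5 kb took 11.6% to 18.9% in the others and 5.49% and 4.06% in vehicle. The longest coding transcripts of the 10 genes measure 2588 bases (Emcn) to 11911 bases (Ptprb). The summed level of 8 alveolar type 2 cell genes was 8564 to 76870 CPM (counts relative to the library total, scaled by TMM factors) in the other libraries and 140003 and 207834 CPM in vehicle. Vehicle and these differences in RNA content cannot be told apart, so the differences from vehicle were also tested after a correction for transcript length and GC content.

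Promoters of 6 of the 10 genes were in the RefSeq promoter table (build GRCm38.p6), and those of 4 receptors and surface genes are shown. The choice rests on the values before the length and GC correction. There 3 of them (Kdr, Flt1 and Tek) differed from vehicle in every comparison while Emcn did not. Each is read 5′ to 3′ on the gene's strand and ends at or before the first base of the annotated gene. Capitals mark GGAA, or TTCC where it lies on the other strand, which is the core that ETS transcription factors such as Erg and Fli1 bind.
Kdr, chr5:75978459-75978705, minus strand: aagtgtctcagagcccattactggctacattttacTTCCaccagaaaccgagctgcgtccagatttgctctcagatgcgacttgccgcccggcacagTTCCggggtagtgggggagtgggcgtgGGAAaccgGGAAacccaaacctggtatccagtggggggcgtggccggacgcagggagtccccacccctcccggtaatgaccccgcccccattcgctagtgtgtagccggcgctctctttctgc
Flt1, chr5:147726012-147726261, minus strand: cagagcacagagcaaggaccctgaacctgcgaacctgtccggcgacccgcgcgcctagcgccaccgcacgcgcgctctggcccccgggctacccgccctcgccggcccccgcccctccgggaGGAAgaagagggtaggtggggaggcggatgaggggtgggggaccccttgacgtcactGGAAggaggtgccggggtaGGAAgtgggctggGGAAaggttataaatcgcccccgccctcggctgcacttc
Tek, chr4:94739039-94739288, plus strand: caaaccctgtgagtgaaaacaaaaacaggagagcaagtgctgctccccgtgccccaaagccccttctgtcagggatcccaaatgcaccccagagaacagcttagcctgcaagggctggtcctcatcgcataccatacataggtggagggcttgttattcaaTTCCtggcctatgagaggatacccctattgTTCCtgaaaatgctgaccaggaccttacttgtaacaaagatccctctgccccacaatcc
Emcn, chr3:137340828-137341066, plus strand: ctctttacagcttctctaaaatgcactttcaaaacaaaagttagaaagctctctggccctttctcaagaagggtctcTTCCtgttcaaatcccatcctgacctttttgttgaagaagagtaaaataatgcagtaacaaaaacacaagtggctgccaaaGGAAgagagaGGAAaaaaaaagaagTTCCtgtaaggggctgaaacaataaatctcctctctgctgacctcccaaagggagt
GGAA was found on either strand 4 times in Kdr, 4 times in Flt1, 2 times in Tek and 4 times in Emcn in the 250 bases before the start. It was found in 93.4% of 32851 promoters in a window of this length, with a median of 3, so its presence does not set these genes apart. The longer AGGAAG, searched on both strands and overlapping GGAA, was found in Flt1 and Emcn, and in 29.5% of all promoters. TATAAA, searched on both strands, was found in Flt1 alone of these 4, and in 12.4% of all promoters.

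Before the length and GC correction, the RNA of 9 of the 10 genes was higher than in vehicle in resistant, combination, T-DM1 and mobocertinib. Emcn was the exception in each of these 4 comparisons. The differences were largest for Ptprb and Cdh5, at 8.13-fold to 19.1-fold, and were 2.37-fold to 8.71-fold for the other 7. The 9 genes passed edgeR's quasi-likelihood test at a Benjamini-Hochberg adjusted p below 0.05 over all 17933 genes, and in each comparison every library of the higher group lay above both vehicle libraries for these 9. Of all genes, 28.8% in resistant, 33.3% in the combination, 32.2% in T-DM1 and 31.1% in mobocertinib had libraries that all lay above vehicle. The share of all genes called was 41% in resistant, 35% in the combination, 31.7% in T-DM1 and 32.9% in mobocertinib, and 22%, 17.6%, 16.7% and 16.8% of all genes were called higher in the same order. The median log2 fold change of the 10 genes was 1.92 in resistant, 1.52 in the combination, 1.77 in T-DM1 and 1.92 in mobocertinib, beside 0.18, 0.08, 0.18 and 0.09 over all genes tested. The 4 comparisons share the same 2 vehicle libraries and are not independent of each other.

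**Figure D1:**
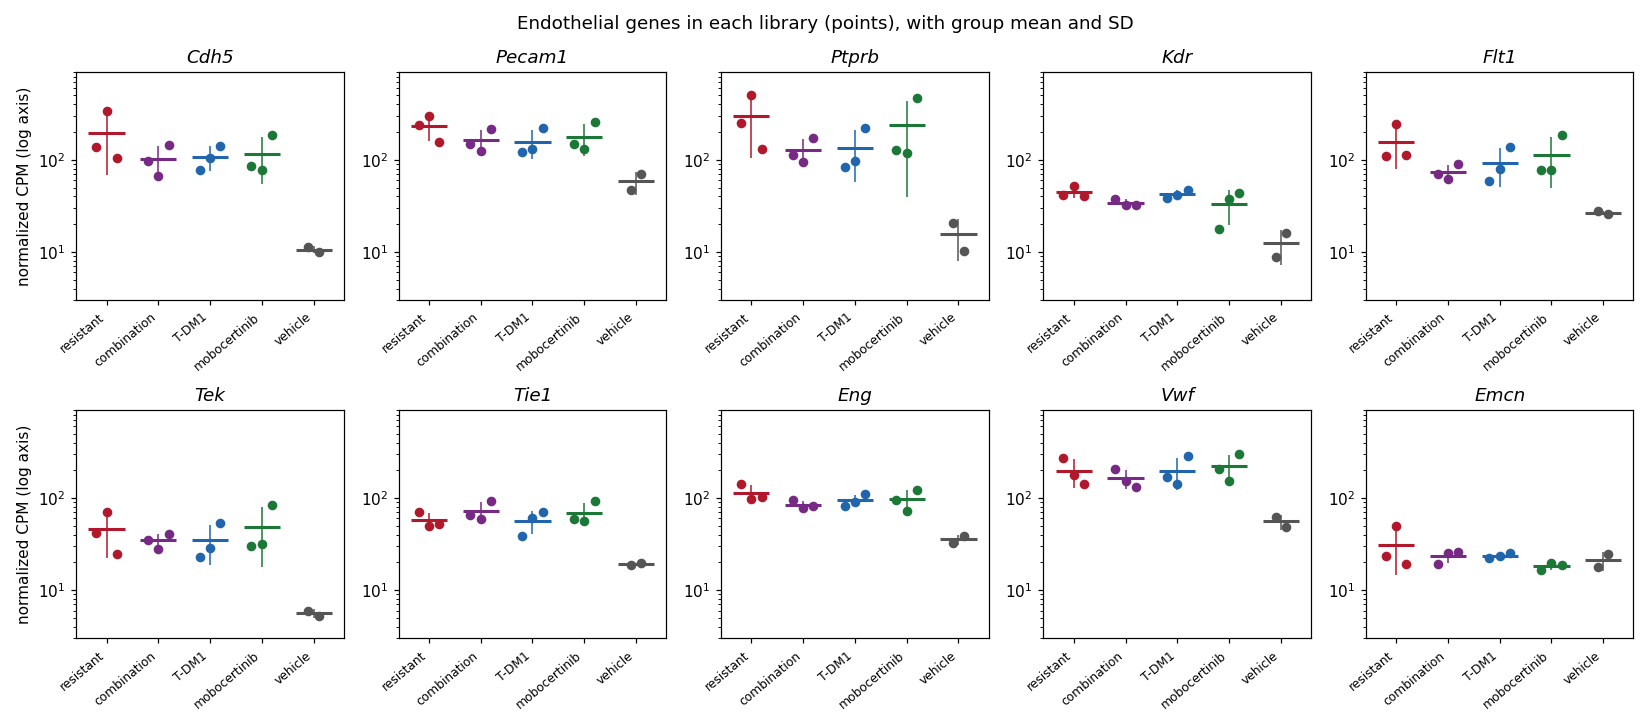
Each panel shows 1 gene, with normalized CPM on a log axis for every library (points), the group mean (horizontal bar) and the SD (vertical line), for resistant, combination, T-DM1, mobocertinib and vehicle nodules. For 9 genes both vehicle points lie below all others, as for Cdh5 at 11.2 and 9.96 CPM, whereas the vehicle points of Emcn lie among the rest.

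Cdh5 (chromosome 8, 104101625 to 104144511, mm10), the cadherin of endothelial junctions, had 138, 336 and 105 CPM in resistant, 97.4, 67.4 and 144 CPM in the combination, 76.9, 105 and 141 CPM in T-DM1 and 84.9, 77.2 and 187 CPM in mobocertinib, against 11.2 and 9.96 CPM in vehicle. The lowest value outside vehicle, in combination 2, lay far above both vehicle values. Its log2 fold change was 4.19 ± 0.626 (SE, adjusted p = 0.00031) in resistant, 3.28 ± 0.597 (0.00153) in the combination, 3.34 ± 0.599 (0.00166) in T-DM1 and 3.46 ± 0.602 (0.00135) in mobocertinib. Pecam1 (chromosome 11, 106654217 to 106750628), an adhesion molecule of endothelial junctions that leukocytes and platelets also carry, had 239, 298 and 157 CPM in resistant, 149, 123 and 213 CPM in the combination, 120.1, 132 and 219 CPM in T-DM1 and 149, 129.6 and 257 CPM in mobocertinib, against 46.7 and 69.7 CPM in vehicle. Its differences were smaller than those of Cdh5, at 3.98-fold, 2.78-fold, 2.70-fold and 3.07-fold (adjusted p = 0.00285, 0.0159, 0.0200 and 0.0111, in the same order of groups). The summed level of 7 pan-leukocyte genes was 271 to 1079 CPM in the other groups and 1047 and 1236 CPM in vehicle, with overlap. Of the 7, 2 were called lower in resistant, 2 in the combination, 1 in T-DM1 and 2 in mobocertinib. Of all genes, 41%, 35%, 31.7% and 32.9% were called in either direction. By TPM 0 of the 7 were lower and 1 higher in each, beside 59.7%, 56.7%, 57.4% and 55% of all genes called higher. The part of leukocytes in the Pecam1 difference was not tested.

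Ptprb (chromosome 10, 116275523 to 116389535), the phosphatase that dampens signalling of the Tek receptor and associates with the Cdh5 cadherin, had 250.4, 510.5 and 131 CPM in resistant, 112, 95.7 and 171 CPM in the combination, 84.3, 96.2 and 222 CPM in T-DM1 and 127, 119 and 467 CPM in mobocertinib, against 20.8 and 10.3 CPM in vehicle. It had the widest spread of the set, with resistant 2 and mobocertinib 3 far above the other libraries of their groups. Its log2 fold change was 4.26 ± 0.829 (adjusted p = 0.00165) in resistant, 3.02 ± 0.776 (0.0101) in the combination, 3.11 ± 0.779 (0.0101) in T-DM1 and 3.93 ± 0.814 (0.0035) in mobocertinib.

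Both VEGF receptors had higher counts than in vehicle, but neither was called in any comparison after the length and GC correction. Kdr (chromosome 5, 75932827 to 75978458), the main signalling receptor for VEGF-A, had 41.5, 52.1 and 40.7 CPM in resistant, 37.7, 31.9 and 31.98 CPM in the combination, 38.0, 41.6 and 46.8 CPM in T-DM1 and 17.8, 37.9 and 43.6 CPM in mobocertinib, against 8.76 and 15.97 CPM in vehicle. Mobocertinib 1, at 17.8 CPM, lay closer to vehicle 2 than to the other 2 mobocertinib libraries. The fold differences of Kdr were 3.62, 2.74, 3.41 and 2.68 (adjusted p = 0.00178, 0.00839, 0.00364 and 0.0100). Flt1 (chromosome 5, 147561604 to 147726011), which binds VEGF-A tightly and is also made as a soluble decoy, had 111, 242 and 112 CPM in resistant, 70.3, 61.5 and 89.0 CPM in the combination, 59.0, 79.0 and 137 CPM in T-DM1 and 76.6, 76.8 and 186 CPM in mobocertinib, against 27.7 and 25.8 CPM in vehicle. Flt1 was 5.80-fold, 2.75-fold, 3.43-fold and 4.23-fold higher (adjusted p = 0.00232, 0.0368, 0.0180 and 0.00862), and its call in the combination was lost without vehicle 1, vehicle 2, combination 1 or combination 3. Gene counts do not separate the soluble form from the membrane form.

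Tek and Tie1 form the receptor pair of the angiopoietins, and the difference between their changes was not tested. Tek (chromosome 4, 94739289 to 94874976), the receptor that binds angiopoietins, had 41.2, 70.6 and 24.8 CPM in resistant, 35.3, 28.2 and 40.3 CPM in the combination, 22.7, 28.8 and 53.0 CPM in T-DM1 and 30.3, 31.5 and 84.8 CPM in mobocertinib, against 6.00 and 5.20 CPM in vehicle. Its fold differences were 8.12, 6.17, 6.21 and 8.71 (adjusted p = 0.00166, 0.00449, 0.00511 and 0.00215). Tie1 (chromosome 4, 118471191 to 118490061), its partner with no angiopoietin bound directly, had 71.0, 50.3 and 52.1 CPM in resistant, 65.9, 59.6 and 92.4 CPM in the combination, 38.7, 60.2 and 71.0 CPM in T-DM1 and 59.3, 56.6 and 92.0 CPM in mobocertinib, against 18.5 and 19.6 CPM in vehicle. Tie1 was 3.03-fold, 3.81-fold, 2.97-fold and 3.63-fold higher (adjusted p = 0.00228, 0.00113, 0.0039 and 0.00153). The ratio of Tie1 to Tek counts was 0.712 in resistant 2 and 1.08 to 2.29 in the other 11 libraries outside vehicle, against 3.09 and 3.77 in vehicle, given as a description.

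Eng (chromosome 2, 32646595 to 32682669), a co-receptor for ligands of the TGF-β and BMP family, had 142, 96.9 and 102 CPM in resistant, 94.8, 77.0 and 81.4 CPM in the combination, 81.9, 90.8 and 111 CPM in T-DM1 and 95.5, 72.1 and 122 CPM in mobocertinib, against 32.5 and 38.6 CPM in vehicle. It was the steadiest gene of the set outside vehicle, with a 1.96-fold range over 12 libraries. Its fold differences were 3.19, 2.37, 2.65 and 2.72 (adjusted p = 0.000567, 0.0042, 0.00258 and 0.00214). Eng shares 1.51% of its exon bases with Fpgs, and no label states whether counting used strand. Vwf (chromosome 6, 125546774 to 125686679), the clotting protein that endothelial cells and megakaryocytes store, had 275, 177 and 140.4 CPM in resistant, 209, 152 and 132 CPM in the combination, 167, 141 and 285 CPM in T-DM1 and 205, 153 and 303 CPM in mobocertinib, against 63.0 and 48.4 CPM in vehicle. Vwf was 3.54-fold, 2.95-fold, 3.55-fold and 3.96-fold higher (adjusted p = 0.00423, 0.0116, 0.0062 and 0.00389). Of 8 platelet and megakaryocyte genes the summed level was 8.23 to 80.6 CPM in the other libraries and 630.3 and 798 CPM in vehicle. Nearly all of that was Pf4, at 706 ± 116 CPM in vehicle (SD, n = 2), while the platelet integrin gene Itga2b was at 6.34 ± 3.11 CPM there and Gp1ba and Gp6 had 0 counts. Their part in the Vwf values was not tested.

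Emcn (chromosome 3, 137341067 to 137432185), a sialomucin of venous and capillary endothelium, had 23.5, 49.1 and 19.2 CPM in resistant, 19.04, 25.0 and 26.2 CPM in the combination, 22.4, 23.2 and 25.6 CPM in T-DM1 and 16.4, 19.7 and 18.6 CPM in mobocertinib, against 17.8 and 24.7 CPM in vehicle. All groups overlapped vehicle, and resistant 2 alone stood above the rest. Its log2 fold change was 0.53 ± 0.348 (adjusted p = 0.237) in resistant, 0.14 ± 0.345 (0.769) in the combination, 0.16 ± 0.345 (0.738) in T-DM1 and -0.22 ± 0.342 (0.650) in mobocertinib. The mean share of Emcn in the summed counts of the 10 genes was 2.18% in resistant, 2.72% in the combination, 2.67% in T-DM1 and 1.84% in mobocertinib, against 8.11% in vehicle. The ratio of Cdh5 to Emcn counts was 2.69 to 10.1 in the other 12 libraries and 0.632 and 0.404 in vehicle. On the authors' TPM scale, which divides by transcript length, Emcn was called higher in all 4 comparisons, with 33.0 ± 14.03 TPM in resistant, 24.5 ± 3.18 in the combination, 22.5 ± 3.72 in T-DM1 and 18.3 ± 3.18 in mobocertinib, against 6.79 ± 0.262 TPM in vehicle (SD). On that scale, as log2(TPM + 1), the median of all genes itself lay 1.27, 1.18, 1.17 and 1.11 above vehicle, and Emcn lay 0.78, 0.52, 0.41 and 0.19 above that median, in the same order of groups. Emcn was not called with RLE or upper-quartile factors on the counts. Without the filter, all 10 genes were still called by TPM in each comparison with vehicle. The TPM test also differs from the count test in scale and tool, and which of these gives the call was not tested.

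**Figure D2:**
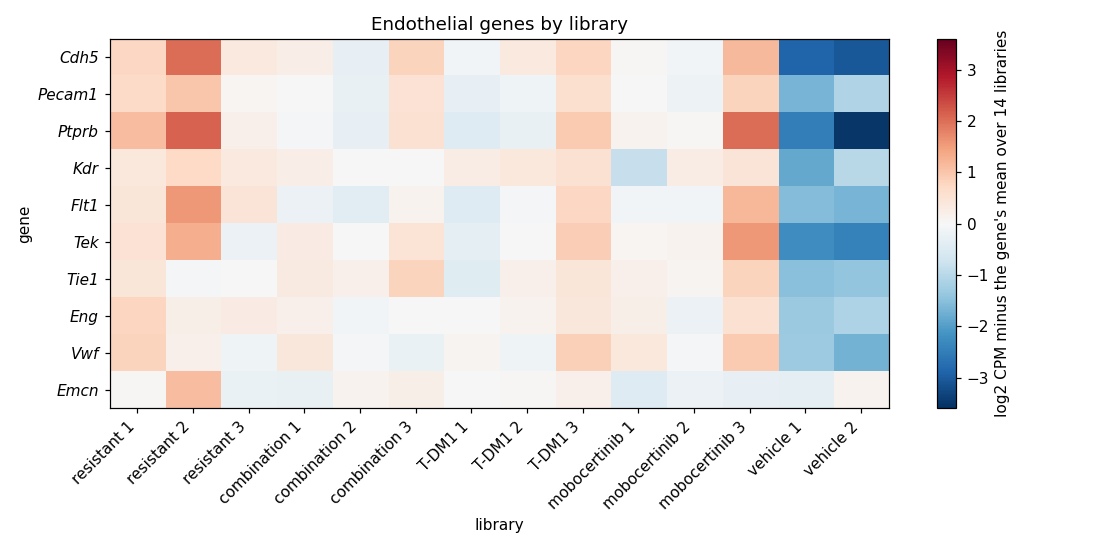
Rows are the 10 genes and columns the 14 libraries, from resistant on the left to vehicle on the right, and color gives each gene's log2 CPM relative to its own 14-library mean. The vehicle columns are low for every gene but Emcn, resistant 2 is high for Cdh5, Ptprb, Flt1, Tek and Emcn but close to the mean for Tie1, Eng and Vwf, and mobocertinib 3 is high for every gene but Emcn.

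With 2 vehicle libraries, several calls were lost when 1 library was left out. A fit without vehicle 1 or vehicle 2 leaves 1 library in that group, so a call can be lost there without a smaller difference. Without vehicle 2, Flt1 was at 2.14 in mobocertinib, 1.85 in T-DM1 and 1.54 in the combination, beside 2.08, 1.78 and 1.46 with all libraries. Without vehicle 1, Kdr was at 1.08 and Pecam1 at 1.39 in mobocertinib, beside 1.42 and 1.62. In resistant against vehicle all 9 genes passed without any 1 library. In mobocertinib 7 to 9 passed: Pecam1 (adjusted p = 0.0714) and Kdr (0.0715) were not called without vehicle 1, nor Flt1 without vehicle 2 (0.0565). In T-DM1 6 to 9 passed. Pecam1 was not called there without vehicle 1 (0.109) or T-DM1 3 (0.0731), and Flt1 was not called without vehicle 1 (0.0631), vehicle 2 (0.0888) or T-DM1 3 (0.0655). Ptprb (0.0877) and Vwf (0.0608) were not called there without vehicle 2. In the combination 6 to 9 passed. Pecam1 (0.0956) and Kdr (0.0650) were not called there without vehicle 1, nor Ptprb (0.0840) and Vwf (0.0832) without vehicle 2. Flt1 was not called in the combination without vehicle 1 (0.103), vehicle 2 (0.126), combination 1 (0.0688) or combination 3 (0.0764). Cdh5, Tek, Tie1 and Eng were called in every one of these fits. In a choice made after the data were seen, without both resistant 2 and mobocertinib 3, the libraries with the highest summed level of the set (1883 and 1762 CPM), 9 genes were still called in resistant and 9 in mobocertinib.

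The differences shrank once transcript length and GC content were accounted for. This correction, possible for 17565 genes (97.9% of those tested), fitted log2 CPM of each library to length and GC content. After it, 6 of the 10 genes were called higher in resistant (Cdh5, Pecam1, Tek, Tie1, Eng and Ptprb), 3 in the combination (Cdh5, Tek and Tie1), 3 in T-DM1 (Cdh5, Tek and Eng) and 5 in mobocertinib (Cdh5, Tek, Tie1, Eng and Ptprb). Of all genes, 29.7%, 24.6%, 23.5% and 23.2% were called in these fits, and 11%, 9.08%, 7.22% and 8.48% were called higher. The corrected median of the set was 1.13, 0.84, 0.78 and 1.02, beside -0.10, -0.12, -0.16 and -0.11 over all genes. Cdh5 and Tek were called in all 4 corrected comparisons, Cdh5 at 3.47 ± 0.602, 2.60 ± 0.576, 2.59 ± 0.576 and 2.77 ± 0.581 and Tek at 1.95 ± 0.477, 1.85 ± 0.475, 1.80 ± 0.474 and 2.31 ± 0.485 on the log2 scale. Kdr, Flt1 and Vwf were called in none, with corrected log2 fold changes of 0.19 to 0.52 for Kdr, 0.19 to 0.97 for Flt1 and 0.15 to 0.59 for Vwf. These 3 have transcripts of 5924, 6895 and 8834 bases. Emcn, at 2588 bases, was also called in none, at 0.44 in resistant, 0.37 in the combination, 0.27 in T-DM1 and 0.018 in mobocertinib. It was therefore not the only exception after the correction. Ptprb, with the longest transcript, kept its call in resistant (2.25) and mobocertinib (2.37) and was at 1.64 in both the combination (adjusted p = 0.0569) and T-DM1 (0.0585), above the corrected values of Tie1 and Eng. A correction of this kind also removes biological differences that follow transcript length.

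**Figure D3:**
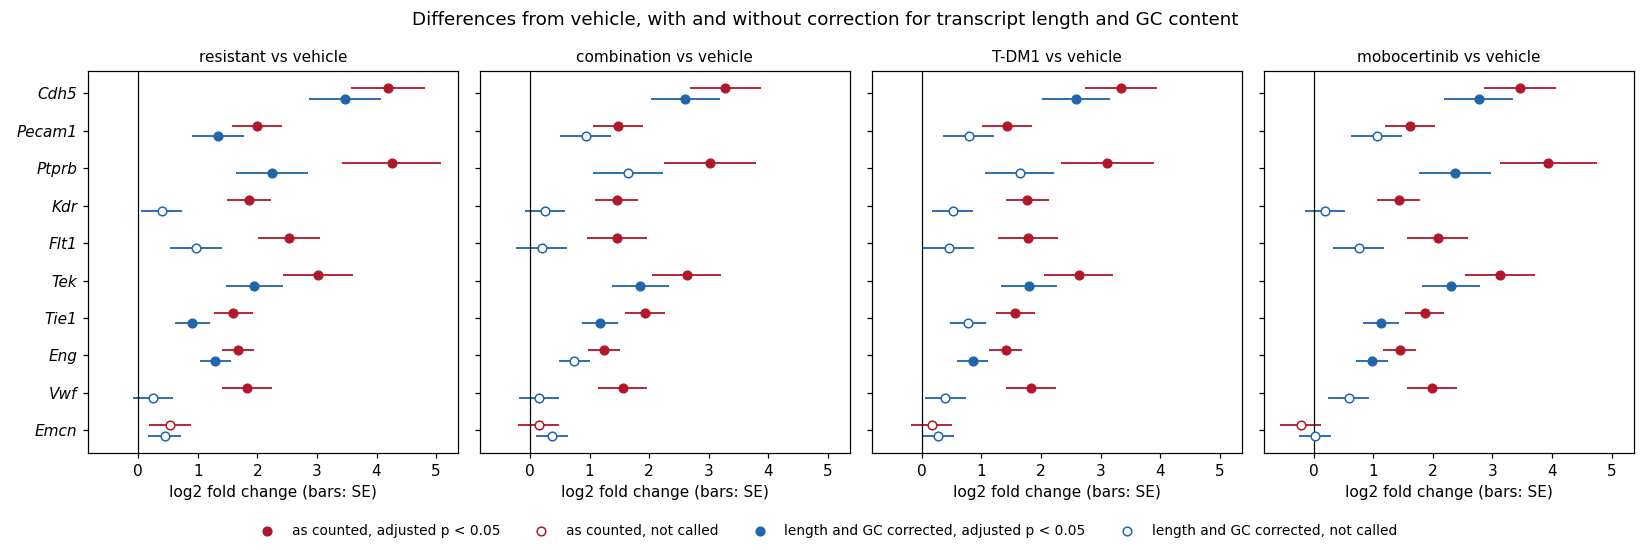
Each panel gives the log2 fold change against vehicle (points, with SE bars) of the 10 genes, before (red) and after (blue) correction for transcript length and GC content, with filled points for adjusted p below 0.05. Cdh5 and Tek stay filled in blue in all 4 panels, and Kdr, Flt1 and Vwf are open in blue in all 4, at 0.15 to 0.97.

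Other genes of endothelial cells were counted by transcript length. Of 22 further pan-endothelial genes, 13 were higher and 2 lower in resistant, 10 and 1 in the combination, 8 and 1 in T-DM1 and 11 and 1 in mobocertinib, with medians of 1.52, 1.10, 1.02 and 1.22. When 1 library was left out, the number higher was as low as 8 in resistant (without vehicle 2), 6 in the combination (without vehicle 1, vehicle 2, combination 2 or combination 3), 4 in T-DM1 (without vehicle 2 or T-DM1 3) and 7 in mobocertinib (without vehicle 1, vehicle 2 or mobocertinib 3). Of the 15 with transcripts of 2 kb or more, a limit chosen after the values were seen, 13, 9, 8 and 10 were higher and 0 lower. Of the 7 shorter ones (Cldn5, Esam, Icam2, Ecscr, Egfl7, Sox18 and Ramp2), 0, 1, 0 and 1 were higher and 2, 1, 1 and 1 lower. Among all coding genes tested, 32.02%, 25.9%, 24.1% and 24.6% of those of 2 kb or more were higher, and 4.34%, 3.07%, 3.51% and 3.35% of the shorter ones. Called lower were 8.71%, 8.22%, 6.26% and 7.88% of those of 2 kb or more, and 42.97%, 36.72%, 32.8% and 35.02% of the shorter ones. The 2, 1, 1 and 1 of 7 short endothelial genes called lower are smaller shares than those of all shorter genes. The summed level of the 7 short endothelial genes was 218 to 489 CPM outside vehicle and 470 and 516 CPM in vehicle, while that of the 15 long ones was 364 to 1177 CPM outside vehicle and 209 and 249 CPM in vehicle. The count ratio of Cdh5 to Cldn5, the claudin of the same junctions with a short transcript, was 0.855 to 4.29 outside vehicle and 0.325 and 0.188 in vehicle. After the length and GC correction 8, 6, 5 and 5 of the 22 genes were higher, beside 11%, 9.08%, 7.22% and 8.48% of all genes. Of the 7 short ones 3, 1, 1 and 1 were then higher and 0, 1, 0 and 1 lower. Of the 15 long ones 5, 5, 4 and 4 were higher and 0 lower, so calls of higher were no longer nearly confined to long transcripts.

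**Figure D4:**
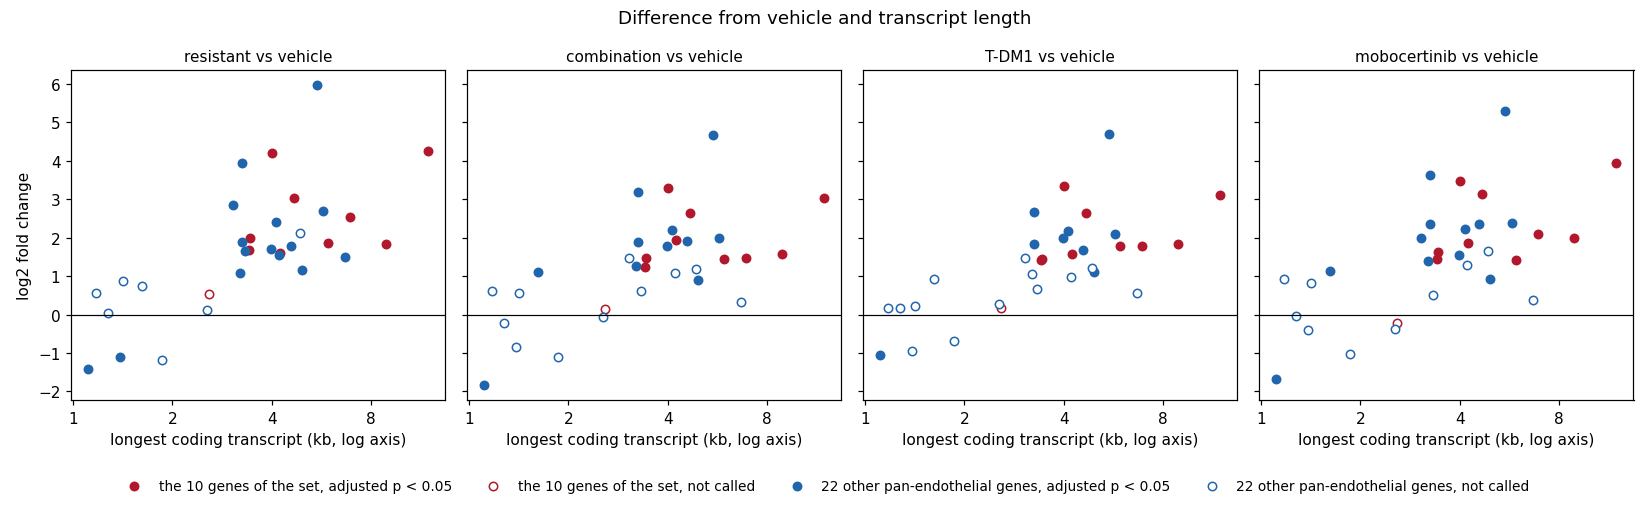
Log2 fold change against vehicle is plotted against the longest coding transcript (kb, log axis) for the 10 genes (red) and 22 other pan-endothelial genes (blue), with filled points for adjusted p below 0.05. Filled points above 0 are at 2 kb and over, apart from Sox18 in the combination (1.11) and mobocertinib (1.14) panels, and filled points below 0 are all under 2 kb.

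By smallest p in resistant against vehicle, the named genes of this list were Cyyr1, Erg, Ecscr and She. Cyyr1, a membrane protein gene, averaged 50.2 ± 36.1 CPM in resistant and 0.819 ± 0.733 CPM in vehicle (SD), a log2 difference of 5.97 ± 0.985 (adjusted p = 0.000572). Erg, the ETS factor that maintains endothelial identity, averaged 86.5 ± 26.9 CPM in resistant and 5.67 ± 1.92 CPM in vehicle (3.93 ± 0.667, adjusted p = 0.000702). Both were called without any 1 library and after the correction (4.70 and 3.47). She, an adaptor gene, was at 2.69 ± 0.619 (adjusted p = 0.00447) and was not called after it (0.103). Ecscr, a chemotaxis regulator of endothelial cells, was lower in all 4 groups, at 25.0 ± 7.19 CPM in resistant and 66.7 ± 5.24 CPM in vehicle (-1.42 ± 0.244, adjusted p = 0.000769). In resistant neither the correction (-0.62, adjusted p = 0.109) nor TPM, where the sign turned to 0.38 (adjusted p = 0.2004), kept that call. After the correction Ecscr was still called lower in the combination (-1.15, adjusted p = 0.0122) and mobocertinib (-1.09, 0.0154). By TPM it was called higher in T-DM1 (0.63, adjusted p = 0.0451), where the median of all genes itself lay 1.17 above vehicle. Egfl7, a secreted endothelial protein and the other gene lower in resistant (-1.11, adjusted p = 0.0274), named after its value was seen, was at 0.58 by TPM (adjusted p = 0.204). By TPM the median of all genes in resistant was 1.27, above the values of both Ecscr and Egfl7 there.

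Among the 4 groups other than vehicle, no difference of the set was detected. A test of any difference among resistant, combination, T-DM1 and mobocertinib called 0 of the 10 genes by edgeR, with 0 at an unadjusted p below 0.05, and DESeq2 and limma-voom also called 0. The background was 0.0279% of all genes (5 genes). In resistant against mobocertinib, 0 of the 10 were called by edgeR, DESeq2 or limma-voom, beside 0.00558% of all genes (1 gene), and the median of the set was 0.35 against 0.07 over all genes. Emcn alone was below an unadjusted p of 0.05 there, at 0.75 ± 0.308 on the log2 scale (adjusted p = 0.622), with 23.5, 49.1 and 19.2 CPM in resistant against 16.4, 19.7 and 18.6 CPM in mobocertinib. Resistant 3 overlapped the mobocertinib libraries for Emcn. In the same comparison Cdh5 was at 0.73 ± 0.461, Kdr at 0.43 ± 0.304, Eng at 0.23 ± 0.232 and Pecam1 at 0.37 ± 0.352, and the signs of Flt1, Tek, Tie1, Ptprb and Vwf turned under at least 1 alternative. The combination was called different from mobocertinib for 0 of 10 genes (0 at an unadjusted p below 0.05, 0% of all genes) and from T-DM1 for 0 of 10 (0 and 0%), and DESeq2 and limma-voom called 0 in both. In the comparison with T-DM1, Kdr had 37.7, 31.9 and 31.98 CPM in the combination, all below the 38.0, 41.6 and 46.8 CPM in T-DM1, where 8% of all genes had libraries that did not overlap in this direction. With 3 libraries a group and ranges of several fold, changes of modest size could go undetected.

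The genes differed in how widely they spread. Over the 12 libraries outside vehicle, the highest value was 6.05 times the lowest for Ptprb, 4.99 for Cdh5, 4.11 for Flt1 and 3.73 for Tek, but 2.39 for Tie1, 2.29 for Vwf and 1.96 for Eng. Over the same 12 libraries, Pearson's r of log2 CPM with the mean of the other 9 genes was 0.964 for Ptprb, 0.959 for Pecam1, 0.926 for Tek, 0.925 for Flt1 and 0.916 for Cdh5. It was 0.617 for Eng, 0.514 for Vwf, 0.495 for Kdr, 0.451 for Emcn and 0.386 for Tie1. Over all 14 libraries, vehicle included, it was 0.848 to 0.982 for 9 genes and 0.310 for Emcn. These correlations are descriptions over libraries that share the split between vehicle and the rest. Resistant 2 had the highest Cdh5, Pecam1, Ptprb, Kdr, Flt1 and Emcn of all libraries, but 50.3 CPM of Tie1, the lowest of its group. Mobocertinib 3 had the highest Tek and Vwf, combination 3 the highest Tie1 and resistant 1 the highest Eng.

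Levels were compared between genes per unit of transcript length. By mean TPM over all libraries the order was Vwf (74.2), Pecam1 (70.9), Cdh5 (40.03), Eng (36.1), Emcn (22.03), Ptprb (20.8), Flt1 (20.2), Tie1 (19.4), Tek (11.4) and Kdr (8.09). The order differed between libraries, since Pecam1 exceeded Vwf in resistant 2, resistant 3, combination 3, T-DM1 2 and mobocertinib 3, and Cdh5 exceeded Vwf in resistant 2. Neighbours from Emcn to Tie1 lay within the spread of any of them. Cdh5 was at 70.4 ± 40.7 TPM in resistant, 37.2 ± 14.4 in the combination, 37.2 ± 13.3 in T-DM1 and 41.3 ± 26.7 in mobocertinib, against 1.15 ± 0.410 TPM in vehicle. In vehicle it lay below Flt1 (2.17 ± 1.13 TPM) and Tie1 (2.03 ± 0.417 TPM), which it exceeded in every other group mean. In vehicle the highest level was that of Vwf, at 23.0 ± 8.13 TPM, and Pecam1 averaged 8.17 ± 0.820 TPM there.

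The genes most like the set over 14 libraries, among 12225 candidates, were Heg1 (r = 0.984), Pakap (0.979), Cemip2 (0.978), Cyyr1 (0.976), Akap12 (0.975), Acap2 (0.974), Thbd (0.974) and Sparcl1 (0.971). Over the 12 libraries outside vehicle, r was 0.966 for Thbd and 0.965 for Cyyr1, the closest of all candidates there. It was 0.939 for Pakap (rank 11), 0.932 for Heg1 (rank 15), 0.930 for Akap12 (rank 19) and 0.924 for Sparcl1 (rank 26). Cemip2 was at 0.897 (rank 60) and Acap2 at 0.875 (rank 94). The values over 14 libraries include the split between vehicle and the rest. Likeness was measured as Pearson's r between log2 CPM and the mean of the set, and is a description.

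Genes of particular kinds of vessel were counted in the same way, beside 22% of all genes called higher in resistant, 17.6% in the combination, 16.7% in T-DM1 and 16.8% in mobocertinib. Of 15 lung capillary genes, 9 were higher and 2 lower in resistant, 4 and 2 in the combination, 2 and 1 in T-DM1 and 4 and 2 in mobocertinib, but without vehicle 2 the number higher was 2 in resistant, 0 in the combination (0 also without combination 3) and 1 in mobocertinib, and without T-DM1 3 it was 0 in T-DM1. In T-DM1 the share of capillary genes called higher was below that of all genes. The 2 lower in resistant became 0 without resistant 1 or resistant 3, and the 1 lower in T-DM1 became 0 without vehicle 2, T-DM1 1 or T-DM1 3. After the length and GC correction 5, 2, 1 and 3 of the 15 capillary genes were higher and 1, 2, 0 and 2 lower. Of all genes 11%, 9.08%, 7.22% and 8.48% were higher in those fits. Tmem100, a capillary gene under BMP control, averaged 83.2 ± 71.5 CPM in resistant and 2.59 ± 0.831 CPM in vehicle (4.99 ± 1.04, adjusted p = 0.00258). It was called without any 1 library and after the correction (5.29), while Clec1a, Kit and Prx, the other named genes, were not called without vehicle 2. Of 12 arterial and venous genes, 4 were higher in resistant, 5 in the combination, 6 in T-DM1 and 5 in mobocertinib, and 0 were lower. After the correction 3, 2, 2 and 2 of them were higher, in the same order. Before the correction the count in T-DM1 was as low as 2 without T-DM1 3, where 21.2% of all genes were called in either direction. The count in the last 3 groups also fell without vehicle 1, which leaves 1 vehicle library. Efnb2, the arterial ephrin, averaged 57.6 ± 17.0 CPM in resistant and 9.16 ± 5.29 CPM in vehicle (2.65 ± 0.428, adjusted p = 0.000496), and Nr2f2, the venous transcription factor, 41.3 ± 18.5 and 8.80 ± 2.26 CPM (2.23 ± 0.402, adjusted p = 0.00102). Both, and Slc6a2 (3.98 ± 0.930, adjusted p = 0.00487), kept their calls after the correction, and Ephb4 did not (adjusted p = 0.282).

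Of 8 lymphatic genes, 5 were higher in resistant and 3 each in the combination, T-DM1 and mobocertinib, with 0 lower and 4 to 5, 2 to 4, 1 to 4 and 1 to 4 higher when 1 library was left out. The low count of 1 was reached in T-DM1 without vehicle 2, T-DM1 1 or T-DM1 3, and in mobocertinib without vehicle 2. In the fit of all 14 libraries, the 5 of 8 in resistant stand beside 22% of all genes called higher. The 3 of 8 stand beside 17.6% in the combination, 16.7% in T-DM1 and 16.8% in mobocertinib. The low counts come from smaller fits, to which those shares do not apply. Without T-DM1 1 or T-DM1 3, 23.8% and 21.2% of all genes were called in T-DM1 in either direction. After the length and GC correction 4 of the 8 were higher in resistant, 2 in the combination, 2 in T-DM1 and 3 in mobocertinib. Of all genes 11%, 9.08%, 7.22% and 8.48% were higher in those fits. Lyve1, the hyaluronan receptor of lymphatic vessels and some macrophages, averaged 146 ± 89.3 CPM in resistant and 4.25 ± 4.43 CPM in vehicle (5.09 ± 1.03, adjusted p = 0.00216). Flt4, the receptor for VEGF-C, averaged 34.4 ± 15.8 CPM in resistant and 3.70 ± 1.98 CPM in vehicle (3.21 ± 0.534, adjusted p = 0.000607). Prox1, the factor that sets lymphatic identity, averaged 4.16 ± 2.06 CPM in resistant and 0.150 ± 0.212 CPM in vehicle (4.68 ± 1.12, adjusted p = 0.00543). These 3 kept their calls after the correction and without any 1 library. Mmrn1 (3.40 ± 0.938, adjusted p = 0.0120) was not called without vehicle 2 or by limma-voom.

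Of 12 genes of sprouting vessels, 2 were higher and 1 lower in resistant, 1 and 2 in the combination, 3 and 1 in T-DM1 and 1 and 2 in mobocertinib, with medians of 0.26, -0.22, 0.42 and -0.37. The shares of all genes called in either direction were 41%, 35%, 31.7% and 32.9%, so the counts are near or below the background. The number higher was 0 in mobocertinib without vehicle 1. Unc5b (1.62 ± 0.493, adjusted p = 0.0197), Col4a1 (1.33 ± 0.446, adjusted p = 0.0302) and Apln (-1.73 ± 0.602, adjusted p = 0.0356) were the calls in resistant. Unc5b was not called without vehicle 1 or resistant 3, Col4a1 without vehicle 2 or resistant 2, and Apln without vehicle 1, resistant 1 or resistant 3. After the correction only Apln was called of these 3, and its sign turned on the log2(TPM + 0.1) scale (0.028).

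Of 13 genes for ligands of the receptors 11 were tested, and 2 were higher and 1 lower in resistant, 1 and 2 in the combination, 2 and 2 in T-DM1 and 1 and 1 in mobocertinib. Of all genes, 41%, 35%, 31.7% and 32.9% were called in either direction in these comparisons. When 1 library was left out the number higher ran over 0 to 4 in resistant and mobocertinib and 1 to 4 in the combination and T-DM1. Tgfb2, a TGF-β ligand, was called higher in all 4 groups, at 15.1 ± 5.43 CPM in resistant, 54.5 ± 13.0 in the combination, 21.4 ± 3.91 in T-DM1 and 24.5 ± 14.04 in mobocertinib, against 4.53 ± 3.36 CPM in vehicle. Its log2 fold change was 1.72 ± 0.553 (adjusted p = 0.0249), 3.58 ± 0.602 (0.000975), 2.23 ± 0.564 (0.0106) and 2.42 ± 0.569 (0.00682). Without vehicle 2 it was called in the combination alone, without resistant 1 it was not called in resistant, and after the correction in the combination and mobocertinib. Vegfb was called lower in resistant (-0.95 ± 0.258, adjusted p = 0.0109), the combination (-0.91 ± 0.258, 0.0164) and T-DM1 (-0.92 ± 0.258, 0.0170), but its sign turned to 0.81, 0.78 and 0.61 on the log2(TPM + 1) scale, and no call was left after the correction. On that scale the median of all genes was 1.27 in resistant, 1.18 in the combination, 1.17 in T-DM1 and 1.11 in mobocertinib. The TPM values of Vegfb, and those of Pgf given next, lay below it. Pgf, placental growth factor, which binds Flt1, was called lower in the combination (-1.68 ± 0.447, adjusted p = 0.0120), T-DM1 (-1.39 ± 0.446, 0.0316) and mobocertinib (-1.44 ± 0.446, 0.0262). It kept these calls after the correction, but lost each without vehicle 2, and also without combination 1, any of the 3 T-DM1 libraries, or mobocertinib 2 or 3 in the comparison that holds them, and its sign turned by TPM (0.093, 0.24 and 0.21). Angpt2, the context-dependent Tek ligand, was called higher in T-DM1 (1.41 ± 0.451, adjusted p = 0.0311) and not after the correction or without vehicle 1, T-DM1 1 or T-DM1 3. Tgfb3 was higher in resistant (1.68 ± 0.584, adjusted p = 0.0359) and not after the correction or without vehicle 2 or resistant 1. Vegfa, the main Kdr ligand, was not called in any comparison, with 133 ± 35.2 CPM in resistant and 118 ± 91.3 CPM in vehicle.

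Of 18 co-receptors and signalling partners, 12 were higher and 1 lower in resistant, 10 and 2 in the combination, 11 and 1 in T-DM1 and 9 and 2 in mobocertinib, with medians of 1.30, 0.98, 1.10 and 0.97. Of all genes, 22%, 17.6%, 16.7% and 16.8% were called higher. After the correction 4, 3, 3 and 3 of the 18 were higher and 2, 1, 0 and 3 lower, beside 11%, 9.08%, 7.22% and 8.48% of all genes higher, and without T-DM1 3 the number in T-DM1 was 6 before it. Many of these genes are used by most cell types. Foxo1, a factor that Tek signalling restrains, averaged 71.6 ± 3.06 CPM in resistant and 17.4 ± 7.20 CPM in vehicle (2.04 ± 0.252, adjusted p = 0.000107), and Notch1 79.7 ± 11.2 CPM in resistant and 22.1 ± 4.28 CPM in vehicle (1.85 ± 0.258, adjusted p = 0.00021). Neither was called after the correction (adjusted p = 0.241 and 0.516). Ctnnb1, the β-catenin that binds the Cdh5 cadherin, was at 1.39 ± 0.247 (adjusted p = 0.000903) and was still called after it (0.0368).

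Pericytes and smooth muscle cells wrap vessels. Of 10 pericyte genes, 3 were higher and 2 lower in resistant, 2 and 2 in the combination, 3 and 2 in T-DM1 and 2 and 2 in mobocertinib. Of all genes, 22%, 17.6%, 16.7% and 16.8% were called higher. In either direction 5, 4, 5 and 4 of the 10 were called, beside 41%, 35%, 31.7% and 32.9% of all genes. The pericyte counts are thus not far above the background. Without vehicle 2 the number higher was 1 in the combination, T-DM1 and mobocertinib. Notch3 averaged 54.2 ± 13.2 CPM in resistant and 9.71 ± 3.81 CPM in vehicle (2.48 ± 0.336, adjusted p = 0.00018), and Higd1b 8.76 ± 1.08 CPM in resistant and 97.9 ± 73.3 CPM in vehicle (-3.48 ± 0.479, adjusted p = 0.000197). Both calls held after the correction (adjusted p = 0.0217 and 0.00492), while Pdgfrb (1.31 ± 0.316, adjusted p = 0.00568) and Abcc9 (3.01 ± 0.766, adjusted p = 0.00782) were not called after it, nor Abcc9 without vehicle 1. The summed level of the 10 was 287 to 427 CPM in resistant, 276 to 411 in the combination, 319 to 419 in T-DM1 and 344 to 384 in mobocertinib, against 232 and 427 CPM in vehicle, so the groups overlapped. Of 6 smooth muscle genes 5 were higher in resistant, 1 in the combination, 1 in T-DM1 and 2 in mobocertinib. The count in resistant was 2 without vehicle 1, vehicle 2 or resistant 1 and 2 after the correction, and in the other 3 groups it was 0 without vehicle 1 or vehicle 2. Their summed level was 299, 306 and 1878 CPM in resistant and 183 and 282 CPM in vehicle, so 1 resistant library sets the upper end. Of 8 fibroblast genes 3 were higher in resistant and 0 in each of the other groups by edgeR, where 0 in the combination, 2 in T-DM1 and 0 in mobocertinib had an unadjusted p below 0.05. The 3 became 0 without vehicle 1 or vehicle 2 and 1 after the correction. Their summed level was 408, 845 and 3666 CPM in resistant and 331 and 439 CPM in vehicle, so here too 1 resistant library sets the upper end. Their part in the endothelial values was not tested.

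The difference of differences, in which the differences of mobocertinib and of T-DM1 from vehicle are both subtracted from that of the combination, asks whether the combination differs from vehicle by the sum of what each drug alone does on the log2 scale. It was called negative for 8 of the 10 genes, all but Pecam1 (-1.57 ± 0.537, adjusted p = 0.0723) and Emcn (0.20 ± 0.460, adjusted p = 0.809), where 12.2% of all genes were called and 6.41% were negative. The 3 drug groups stood at similar levels above vehicle for these genes, and in that case the contrast is close to minus the difference of 1 drug from vehicle. The number called was 1 without vehicle 2, 2 without combination 2, 3 without T-DM1 3, 5 without vehicle 1 or mobocertinib 3 and 1 after the length and GC correction (Cdh5, adjusted p = 0.0498). It uses the same libraries as the comparisons above and adds no independent evidence to them. The lengths of the treatments are not stated, so unequal lengths and a departure from the sum cannot be told apart.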

How the data were processed

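The deposited tables cover 14 libraries: the authors' gene counts, whole numbers per gene with no normalization, and the authors' TPM values for 47606 genes. STAR, RSEM and mm10 are named per the submitters' processing notes, with no role, version or strand option stated. Of 55291 genes in the count table, 24822 had 0 counts in every library. Among 13 replicate pairs 0 were identical, and chi-square per degree of freedom was 87.9 to 504.

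Genes were filtered with filterByExpr, scaled with TMM factors and tested with edgeR 4.0.16 (robust quasi-likelihood F-test, R 4.3.3) in 1 fit of 14 libraries with 9 residual degrees of freedom. P-values were Benjamini-Hochberg adjusted over 17933 genes, with a threshold of 0.05. The SE was taken as the size of the log2 fold change over the root of F. CPM values are scaled by TMM factors. The correction for length and GC content subtracted natural splines (5 degrees of freedom) of log10 transcript length and GC content (GENCODE M21) from each library. TPM was tested with limma-trend (limma 3.58.1) on log2(TPM + 1), for genes at 1 TPM or more in at least 2 libraries. That scale understates changes of low genes. DESeq2 1.42.0, limma-voom, other factors and filters, fits of the compared groups alone and fits without each library were alternatives. The procedure was tested on simulated data.

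All 10 genes were named, and from each other list up to 4 called genes with the smallest p. Members and lists were chosen with earlier results of these data known. Exceptions are marked where they stand.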

Additional observations from a re-analysis of the deposited data

Results flagged for a closer look

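For 8 genes the gap between the combination's difference from vehicle and the sum of those of both single drugs, on the log2 scale, passed edgeR's quasi-likelihood test over all genes. It was -3.52 ± 0.731 (SE) for Cdh5, with an adjusted p of 0.0119, and -4.02 ± 0.976 for Ptprb (0.0216). For the angiopoietin receptors it was -3.13 ± 0.726 for Tek (0.0180) and -1.50 ± 0.422 for Tie1 (0.0375). For the VEGF receptors it was -1.74 ± 0.467 for Kdr (0.0317) and -2.40 ± 0.651 for Flt1 (0.0328). It was -1.60 ± 0.354 for Eng (0.0149) and -2.25 ± 0.536 for Vwf (0.0202). Of all genes, 12.2% were called and 6.41% were negative. After the length and GC correction only Cdh5 was called by the same test (adjusted p = 0.0498). All 8 values rest on the same 2 vehicle libraries. Unequal lengths of treatment, which are not stated, and a departure from the sum cannot be told apart. The 3 drug groups stood at similar levels above vehicle, where this contrast is close to minus the difference of 1 drug from vehicle.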

How the results depend on the processing

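No paired analysis was possible because the labels give no pairing of libraries. The library numbers used here follow the order of the samples within each group and do not come from the labels. With 2 vehicle libraries, and vehicle set apart by its RNA content, the number of calls against vehicle depended most on length correction and on which library was left out. The number of the 10 genes called with the length and GC correction was 6 in resistant, 3 in the combination, 3 in T-DM1 and 5 in mobocertinib. For the difference of differences it was 1. Without 1 library each it was 9 to 9 in resistant, 6 to 9 in the combination, 6 to 9 in T-DM1, 7 to 9 in mobocertinib, 1 to 8 for the difference of differences and 0 to 0 for the comparisons among other groups. DESeq2 and limma-voom called 9 in each comparison with vehicle, and 9 and 6 for the difference of differences.

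Signs turned as follows, and the cause was not tested. With the filter, the median of all genes against vehicle was 1.11 to 1.27 on log2(TPM + 1) and 1.62 to 1.77 on log2(TPM + 0.1). The TPM values below for Ecscr, Vegfb, Pgf and Apln lay under those medians. Emcn in mobocertinib was 1.30 on log2(TPM + 1) with and without filter, 1.41 on log2(TPM + 0.1), 0.018 with the correction and -0.40 to 0.15 when single libraries were left out. Emcn was -0.026 to 0.53 in T-DM1 and -0.045 to 0.53 in the combination in such fits, and -0.012 in the combination with upper-quartile factors. Its difference of differences was -1.18 by log2(TPM + 1), -1.28 by log2(TPM + 0.1) and -0.16 without vehicle 2. In resistant against mobocertinib, single-library omission gave -0.020 to 0.99 for Flt1, -0.57 to 0.54 for Tek (0.54 without mobocertinib 3, 0.19 without resistant 3), -0.32 to 1.24 for Ptprb (-0.030 without mobocertinib 2), -0.51 to 0.13 for Vwf (0.036 without resistant 3) and -0.46 to -0.010 for Tie1. Tek was 0.075 and 0.087 by TPM with the larger and smaller pseudocount and 0.12 without both mobocertinib 3 and resistant 2. Tie1 was 0.11 without both. Ptprb was -0.12 with the correction, and Vwf was 0.23 without both. By TPM with the larger and smaller pseudocount, Ecscr in resistant was 0.38 and 0.39. Vegfb was 0.81 and 0.84 in resistant, 0.78 and 0.81 in the combination and 0.61 and 0.64 in T-DM1. Pgf was 0.093 and 0.12 in the combination, 0.24 and 0.32 in T-DM1 and 0.21 and 0.28 in mobocertinib. Apln in resistant was 0.028 with the smaller pseudocount.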
